A study of Mus musculus with 24 samples.

Results

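The genes described here encode the interleukin-10 (IL-10) receptor pathway: the cytokine Il10, its receptor chains Il10ra and Il10rb, the receptor's kinases Jak1 and Tyk2, the transcription factor Stat3, and the STAT3-induced genes Socs3 and Bcl3. They are 8 of 54532 genes in the count files, chosen by name. RNA of the left gastrocnemius, a calf muscle, was sequenced in 24 samples of wild-type C57/BL6 mice, in 6 groups of 4, and all samples are labelled 24 h. Control females and control males were sedentary and had 2 injections of 20 µl saline at pH 7.2 in the muscle, 5 days apart. Sedentary pain mice of each sex had the same volume and spacing at pH 5.0, with 6 min of electrically evoked contraction directly before the second injection. Active pain mice of each sex ran on wheels for 8 weeks and then underwent the same pain model. The controls had neither acid nor contraction, so that acid and contraction cannot be told apart. No group ran without the pain model, so that running is compared within the pain model alone. The labels do not give the animals' age, or say that each sample came from a separate animal, so that the p-values measure the spread between these samples.

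IL-10 is a cytokine that damps inflammation, above all by acting on macrophages. It binds a receptor of IL10RA, which gives specificity, and IL10RB, which is shared with other cytokines of the IL-10 family. JAK1 and TYK2, bound to the receptor chains, phosphorylate STAT3, which enters the nucleus and induces genes that include Socs3 and Bcl3. SOCS3 is a feedback inhibitor best known for restraining gp130 receptors, and BCL3 is a nuclear IκB protein that acts with NF-κB subunits. STAT3, SOCS3 and BCL3 also respond to IL-6 family cytokines and other signals, so that RNA of these genes is not specific to IL-10. In injured muscle, IL-10 is known for its part in the passage of macrophages from an inflammatory to a repair state.

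The Socs3 promoter is shown because Socs3 is the textbook feedback target of STAT3, and because it was the single member promoter with a match among those found. Promoters of 5 of the 8 genes (Jak1, Tyk2, Stat3, Socs3 and Bcl3) were found in a RefSeq table of GRCm38.p6. Each runs from 250 bases before to 50 bases after the gene's start in RefSeq. Both strands were searched for the STAT motif TTCNNNGAA and the NF-κB motif, GGGA and TTCC with 2 unspecified bases between, which do not contain each other. The Socs3 promoter, chr11:117969317-117969616 on the minus strand, held 1 STAT match, printed in capitals, from 154 to 146 bases before the RefSeq start. The annotation used for exon lengths, GENCODE M21, places Socs3 at 117966079-117970047 on the minus strand. By that annotation the whole printed stretch lies inside the gene, after its start.
Socs3 promoter: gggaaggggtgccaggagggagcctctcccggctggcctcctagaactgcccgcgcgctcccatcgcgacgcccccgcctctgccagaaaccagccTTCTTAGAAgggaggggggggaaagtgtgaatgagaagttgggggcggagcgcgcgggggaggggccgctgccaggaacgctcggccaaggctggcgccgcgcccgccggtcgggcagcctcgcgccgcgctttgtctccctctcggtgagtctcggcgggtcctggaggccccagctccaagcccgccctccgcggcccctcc
The STAT motif was present in 2722 of 32817 mouse promoters of this length (8.29%), and the NF-κB motif in 482 (1.47%). The other promoters found held neither motif. A match describes the letters and does not show that STAT3 binds there.

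Total counts per sample ran from 17612139 to 34039699. Levels below are CPM, read counts scaled to library size with trimmed-mean (TMM) factors, and replicate numbers are those of the sample titles. The 6 muscle fibre markers (Acta1, Ckm, Myh4, Myh1, Myh2 and Tnnt3) summed to between 76200 and 179100 CPM in every sample, and none was at 0. The lowest sums were 76200 and 86500 CPM in female sedentary pain replicates 4 and 3, and Myh2 (1 of the 6) and 2 of 4 endothelial markers (Cdh5 and Kdr) fell in that group against control. Mitochondrial genes took 8.59% to 11.02% of the counts of a female control and 2.75% to 8.22% of those of a female sedentary pain sample. The share was 6.67% to 11.44% in female active pain. The shares were 9.43% to 11.19% in male controls, 4.53% to 11.31% in male sedentary pain and 5.97% to 12.63% in male active pain. The part of these differences in the results was not tested. Libraries of female sedentary pain stood apart from each other: 11 macrophage markers summed to 495 and 776 CPM in replicates 1 and 2 and to 4235 and 6119 CPM in replicates 3 and 4. Male sedentary pain replicate 1 stood apart from the other 3 males of its group, with 6 neutrophil markers at 284 CPM against 5.19 to 5.66. Without replicates 3 and 4 of sedentary pain, neither Myh2 nor any endothelial or satellite cell marker was called. The calls of members, macrophage markers and pathway genes in females are given below also without these replicates, and the member values in males without replicate 1 of sedentary pain.

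In female sedentary pain, RNA of both receptor chains, Stat3, Socs3 and Bcl3 was higher than in female controls, while neither kinase passed the test. Of the 7 members that passed the filter on low counts, 5 rose and none fell at an adjusted p under 0.05 (edgeR quasi-likelihood test, Benjamini-Hochberg over 14511 genes). The background was high: 33.5% of all tested genes changed in this comparison, 19.6% upward and 13.9% downward. The median log2 fold change was 1.81 over the 7 members and -0.02 over all tested genes. Among the 4867 genes called, 2847 were higher, against 2253 of 5225 with an offset for GC content and length, which moved the median of all genes to -0.15. The same 5 members rose with that offset, by 1.57 (Il10rb) to 4.42 (Il10ra).

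Il10, the ligand, had 13 reads or fewer in every sample outside female sedentary pain. Replicates 1 to 4 had 1, 0, 4 and 4 reads among female controls, 5, 9, 65 and 72 among sedentary pain females, and 1, 6, 10 and 5 among active pain females. Sedentary pain females had 0.189, 0.526, 2.11 and 2.54 CPM, and no female control exceeded 0.156. Replicates 3 and 4 thus held most of the reads, and the groups did not overlap. Il10 did not pass the filter in the female fit. Without a filter its log2 fold change was 3.88 ± 0.86 (SE, n = 4 and 4, edgeR adjusted p = 0.0101), against 9 reads in the 4 controls together. Leaving out replicates 3 and 4 of sedentary pain as well gave 1.90 ± 0.88 (adjusted p = 0.226). Male controls had 0, 0, 0 and 3 reads, sedentary pain males 6, 0, 4 and 13, and active pain males 2, 3, 2 and 4, and no fold change is given for males.

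Il10ra, the ligand-specific chain, had the largest log2 fold change of the 7 tested members. Female controls had 0.477, 1.05, 2.19 and 2.48 CPM, sedentary pain females 7.26, 16.8, 56.7 and 98.5, and active pain females 2.79, 1.80, 7.86 and 4.20. Every sedentary pain sample was above every control, and replicate 1 of sedentary pain fell below replicate 3 of active pain. The mean rose from 1.55 ± 0.942 to 44.8 ± 41.7 CPM (SD, n = 4), 29.0-fold. The log2 fold change was 4.81 ± 0.85 (SE, edgeR adjusted p = 0.00341). Within replicates 1 and 2 the difference of mean log2 CPM was 3.82, and within replicates 3 and 4 it was 4.96.

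Il10rb, the shared chain, rose less. Female controls had 3.68, 4.04, 7.77 and 5.04 CPM, sedentary pain 6.62, 17.1, 20.5 and 29.1, and active pain 4.90, 4.06, 9.71 and 6.48. Sedentary pain replicate 1 was below control replicate 3, so that the groups overlapped by that 1 pair. The log2 fold change from control to sedentary pain was 1.81 ± 0.42 (SE, n = 4, edgeR adjusted p = 0.00955). Il10rb shares 569 exon bases with the overlapping gene Gm21970 on the same strand, so that reads there cannot be assigned to one of them.

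Jak1, the kinase bound by the IL10RA chain, had the highest mean level per exon length of the members in each group and did not pass the test. Female controls had 140.0, 147, 101 and 131 CPM, sedentary pain 151, 89.3, 154 and 93.1, and active pain 117, 147, 101 and 137. The 3 groups overlapped, and sedentary pain spread on both sides of the controls. The log2 fold change from control to sedentary pain was -0.10 ± 0.21 (SE, n = 4, edgeR adjusted p = 0.714). Its sign was positive with 1 surrogate variable (0.40) and in replicates 3 and 4 alone (0.08). It was also positive without sedentary pain replicate 2 (0.023) or replicate 4 (0.024).

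Tyk2, the kinase bound by the IL10RB chain, split the sedentary pain group. Female controls had 12.5, 13.0, 10.5 and 13.3 CPM, sedentary pain 12.8, 11.3, 27.8 and 27.4, and active pain 11.5, 12.1, 10.9 and 13.6. Replicates 1 and 2 of sedentary pain lay within the control range, and replicates 3 and 4 were above every other female sample. The log2 fold change from control was 0.67 ± 0.27 (SE, n = 4) and did not pass the threshold (edgeR adjusted p = 0.0698). In replicates 1 and 2 alone it was -0.09 and in replicates 3 and 4 alone 1.20, with edgeR adjusted p = 0.801 and 0.00886. Tyk2 shares 554 exon bases with the antisense gene 1700084C06Rik, and the use of strand in counting is not given in the sources used here.

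Stat3, the transcription factor of the pathway, rose in every female sedentary pain sample. Female controls had 45.3, 52.0, 46.4 and 59.9 CPM, sedentary pain 90.2, 199.7, 127 and 182, and active pain 53.8, 68.7, 123 and 70.6. Sedentary pain and control did not overlap, and 3 of the 4 active pain samples were above the highest control. The mean went from 50.9 ± 6.70 to 149.7 ± 50.2 CPM (SD, n = 4), and the log2 fold change was 1.54 ± 0.28 (SE, edgeR adjusted p = 0.00387). The difference of mean log2 CPM was 1.47 in replicates 1 and 2 and 1.53 in replicates 3 and 4.

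Socs3, the feedback inhibitor whose promoter is shown above, rose from a narrow control range. Female controls had 2.38, 1.81, 2.54 and 2.32 CPM, sedentary pain 8.28, 43.6, 41.2 and 49.2, and active pain 2.55, 4.31, 13.9 and 4.83. All samples of both pain groups were above all controls, and the lowest sedentary pain sample was replicate 1. For active pain the margin was narrow, with replicate 1 at 2.548 CPM against 2.539 in control replicate 3. The mean went from 2.26 ± 0.316 to 35.6 ± 18.5 CPM in sedentary pain (SD, n = 4), 15.7-fold. The log2 fold change was 3.95 ± 0.61 (SE, edgeR adjusted p = 0.0026).

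Bcl3, the nuclear IκB protein, rose to a similar degree. Female controls had 1.34, 1.22, 1.88 and 2.02 CPM, sedentary pain 2.57, 23.4, 22.0 and 37.2, and active pain 1.47, 2.08, 5.47 and 2.46. Sedentary pain did not overlap with control, although replicate 1 was 2.57 CPM against a highest control of 2.02. The log2 fold change was 3.69 ± 0.67 (SE, n = 4, edgeR adjusted p = 0.00369). Of all tested genes, 26.3% had groups that did not overlap in this comparison, 15.3% upward. Among the 7 tested members, Il10ra, Stat3, Socs3 and Bcl3 were in that state, all upward.

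Limits of the female comparison lay in the samples included and in the model fitted. Leaving out any 1 of the 12 females kept the 5 calls. Without sedentary pain replicates 3 and 4 together, a setting chosen after seeing the data, Il10ra (2.92), Stat3 (1.49), Socs3 (3.49) and Bcl3 (2.97) were called, with edgeR adjusted p from 0.0174 to 0.0297, and Il10rb had 1.18 (adjusted p = 0.0981). In that fit 9.59% of all genes were called. In replicates 1 and 2 alone, where 1.67% of all genes were called, Il10ra was called (log2 fold change 3.95, edgeR adjusted p = 0.0478), and Il10rb, Stat3, Socs3 and Bcl3 had adjusted p from 0.0742 to 0.131. With 1 surrogate variable as a covariate none of the 5 passed, and their log2 fold changes ranged from 0.15 (Il10rb) to 2.00 (Socs3). The share of all genes called in that fit is not given here.

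**Figure D1:**
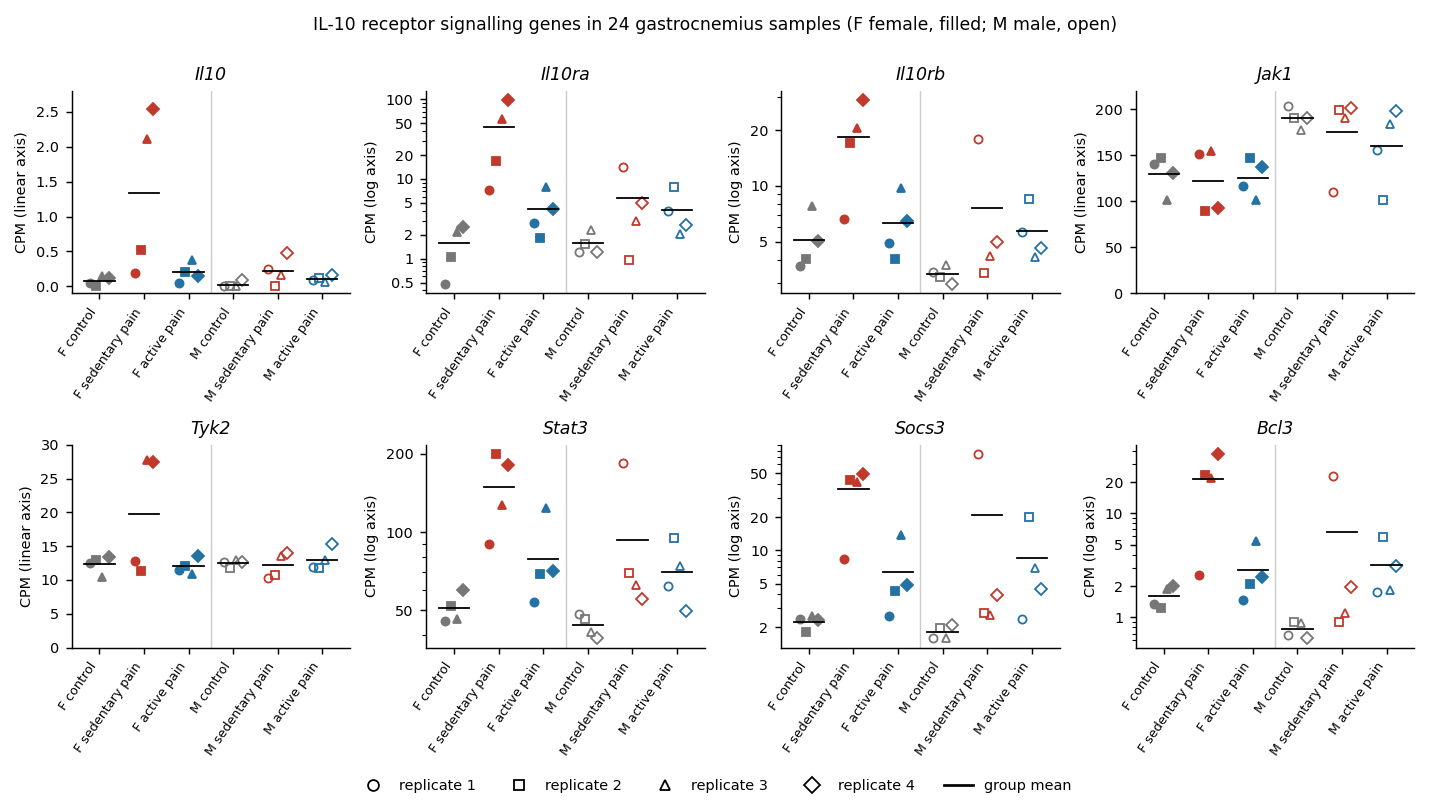
Level of each gene in CPM (y axis, linear for Il10, Jak1 and Tyk2 and logarithmic for the others) in the 6 groups (x axis), with 1 point per sample, marker shapes for replicates 1 to 4 and a line at the group mean. Il10ra, Socs3 and Bcl3 in female sedentary pain are above all female controls, Tyk2 is high in replicates 3 and 4 of that group, and male sedentary pain replicate 1 stands apart for Stat3 (184 CPM) and Socs3 (74.7 CPM).

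Female active pain was next compared with control, which addresses whether animals that had run differed after the pain model from the saline-injected controls. No member was called, and no gene of 14511 was called either (0% of genes, edgeR, with 1020 genes at an unadjusted p under 0.05). DESeq2 called 125 genes in this comparison and none of the members. The largest member difference was Socs3, with a log2 fold change of 1.498 ± 0.57 (SE, n = 4, edgeR adjusted p = 0.624). Its groups did not overlap, a state shared by 5.44% of all tested genes, and by 3.60% with active pain higher. They were apart by a narrow margin, 2.548 against 2.539 CPM. Il10ra followed at 1.40 ± 0.78 (edgeR adjusted p = 0.807), and replicate 2 at 1.80 CPM was below 2 of the controls. The values were 0.83 for Bcl3, 0.64 for Stat3, 0.29 for Il10rb, -0.05 for Jak1 and -0.03 for Tyk2, and the median of the 7 was 0.64 against 0.00 over all genes. Active pain replicate 3 carried much of these differences: without it the values were 0.77 for Socs3, 0.88 for Il10ra, 0.30 for Bcl3, 0.32 for Stat3 and -0.02 for Il10rb.

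Set directly against sedentary pain, female active pain had less RNA of the receptor chains, Socs3 and Bcl3. Of the 7 tested members, 4 fell and none rose, against 11.9% of all genes called, 2.51% upward and 9.41% downward. That split depended on the scaling: 364 of the 1730 genes called were higher, against 652 of 1900 with the offset for GC content and length and 1546 of 2963 with that offset and the replicate number as a block. The same 4 members fell in both. Il10ra fell by 3.41 ± 0.78 on the log2 scale and Bcl3 by 2.86 ± 0.64, both with an edgeR adjusted p of 0.0328 (SE, n = 4). Socs3 fell by 2.45 ± 0.56 with the same adjusted p, and Il10rb by 1.52 ± 0.42 (adjusted p = 0.0386). Stat3 had a log2 fold change of -0.90 ± 0.28 (adjusted p = 0.0547, past the threshold in 5 of 27 alternatives), Tyk2 of -0.70 ± 0.27 (0.0972) and Jak1 of 0.06 ± 0.21 (0.861). The ratio of mean CPM, sedentary over active, was 10.8 for Il10ra, 7.42 for Bcl3, 5.56 for Socs3 and 2.91 for Il10rb.

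None of these 4 had groups that were fully apart: in each, sedentary pain replicate 1 was below active pain replicate 3. Of all tested genes, 11.8% had groups that did not overlap. This comparison and the one with control share the sedentary pain samples, so that the falls here and the rises there are not separate evidence. The 4 calls were lost when certain single libraries were left out, while their log2 fold changes stayed negative. With all samples the smallest edgeR adjusted p of any gene in this comparison was 0.0328. The share of all genes called in the fits that lost the calls is not given here. These losses are thus not read as particular to the members. None of the members was called without female active pain replicate 1, 2 or 4, or without female sedentary pain replicate 3, replicate 4 or both. Il10rb was also not called without female control replicate 4, nor Socs3 when all 24 samples were fitted together. With Il10 counted where it passed the filter, 7 of 8 members were called without sedentary pain replicate 1 (all except Jak1), 6 of 8 without active pain replicate 3 and 5 of 7 without sedentary pain replicate 2. The share of all genes called was 29.0%, 10.4% and 11.9% in these fits. Il10 had at most 10 reads in any female outside sedentary pain. It thus passed the filter through sedentary pain, and its call is no separate support. Over the left-out samples the adjusted p of Il10ra reached 0.101 and its log2 fold change stayed between -3.95 and -2.70.

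In males no member was called. No gene of 14404 was called in male sedentary pain against control (0% of genes, edgeR, 1273 at an unadjusted p under 0.05). DESeq2 called 270 genes and no member, and gave no p-value for Socs3 and Bcl3 in any of the 3 comparisons within males. For Il10ra, male controls had 1.19, 1.504, 2.31 and 1.20 CPM, sedentary pain males 13.97, 0.971, 2.999 and 5.02, and active pain males 3.92, 7.84, 2.02 and 2.61. For Il10rb, male controls had 3.45, 3.25, 3.73 and 2.96 CPM, sedentary pain males 17.9, 3.41, 4.18 and 4.99, and active pain males 5.68, 8.48, 4.14 and 4.63. Both receptor chains were thus highest in sedentary pain replicate 1 and, among active males, in replicate 2, and sedentary pain overlapped with control.

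The signalling genes and targets divided the male samples in the same way. Male controls had 48.3, 46.3, 41.4 and 39.0 CPM of Stat3, sedentary pain males 184, 69.8, 62.8 and 55.4, and active pain males 61.7, 94.6, 74.0 and 49.8. Socs3 stood at 1.60, 1.99, 1.59 and 2.11 CPM in the male controls. It stood at 74.7, 2.68, 2.58 and 3.93 CPM in the sedentary pain males and at 2.37, 20.1, 6.98 and 4.51 CPM in the active pain males. Bcl3 stood at 0.682, 0.909, 0.882 and 0.629 CPM in the male controls, at 22.7, 0.904, 1.10 and 1.97 in the sedentary pain males, and at 1.77, 5.96, 1.85 and 3.13 in the active pain males. For Stat3 and Socs3, every male of both pain groups was above every male control, and for Bcl3 this held in active pain.

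Neither kinase passed the test in males. Jak1 stood at 203, 190.3, 177 and 190.0 CPM in the male controls, at 110.4, 199, 190.5 and 201 in the sedentary pain males, and at 155, 102, 183 and 197.5 in the active pain males. The lowest Jak1 values were in the same libraries, sedentary pain replicate 1 and active pain replicate 2, that had the highest Socs3. Tyk2 stayed between 10.3 and 15.4 CPM in all 12 males.

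Male sedentary pain replicate 1 carried most of the male differences. With all 4 samples the log2 fold changes from control were 3.54 ± 1.15 for Socs3, 3.11 ± 0.98 for Bcl3, 1.90 ± 0.69 for Il10ra, 1.21 ± 0.47 for Il10rb and 1.11 ± 0.35 for Stat3 (SE, edgeR adjusted p from 0.339 to 0.488). Without that sample they were 0.76 for Socs3, 0.79 for Bcl3, 0.97 for Il10ra, 0.34 for Il10rb and 0.54 for Stat3. Groups did not overlap for Stat3 and Socs3, a state that 8.07% of all tested genes shared, and 3.95% with sedentary pain higher.

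Male active pain against control also gave no call (0% of 14404 genes, edgeR, 1045 at an unadjusted p under 0.05, DESeq2 127 genes and no member). The log2 fold changes were 2.22 ± 1.10 for Socs3, 2.03 ± 0.96 for Bcl3, 1.40 ± 0.68 for Il10ra, 0.78 ± 0.47 for Il10rb and 0.68 ± 0.35 for Stat3 (SE, n = 4, edgeR adjusted p = 0.634 for each). Without active pain replicate 2 they were 1.36 for Socs3, 1.54 for Bcl3, 0.88 for Il10ra, 0.53 for Il10rb and 0.51 for Stat3. Il10rb, Stat3, Socs3 and Bcl3 were higher in active pain with no overlap, against 6.34% of all genes higher in that way and 10.4% in either direction. Between active and sedentary pain males no member was called (0% of genes, 121 at an unadjusted p under 0.05, none by DESeq2), and the log2 fold changes ran from -1.32 (Socs3) to 0.08 (Tyk2) with an edgeR adjusted p of 0.9999 for each. Without sedentary pain replicate 1 the signs of both receptor chains, Stat3, Socs3 and Bcl3 turned, to 0.43 for Il10ra and for Il10rb, 0.15 for Stat3, 1.45 for Socs3 and 1.24 for Bcl3, with adjusted p from 0.608 to 0.710.

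**Figure D2:**
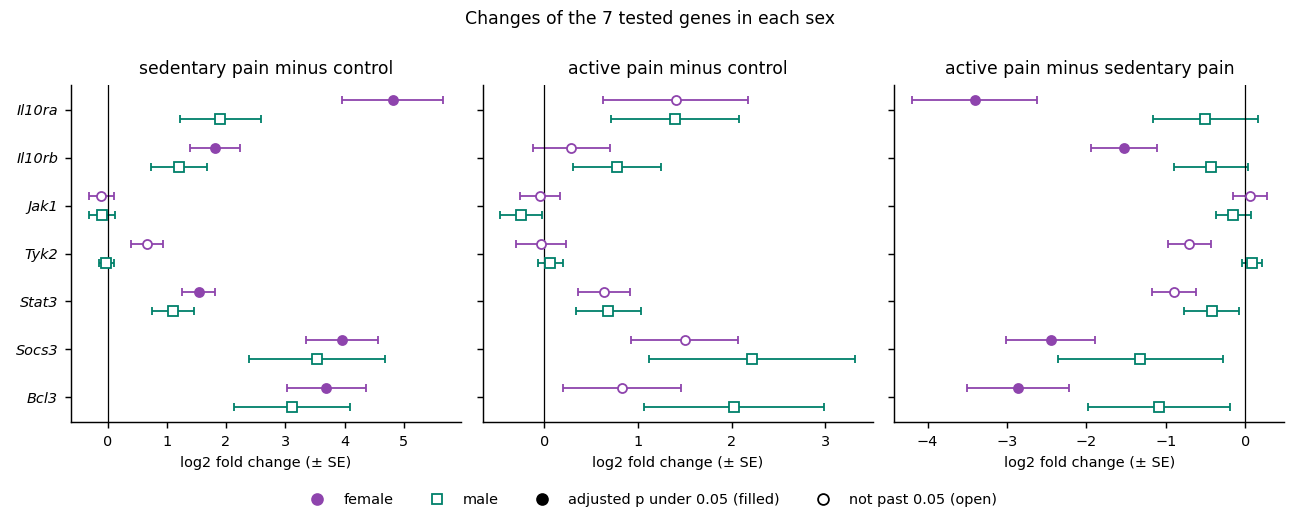
Log2 fold changes (x axis) with standard errors for the 7 tested genes (y axis) in 3 comparisons, females as purple circles and males as green squares, filled where the adjusted p was under 0.05. In sedentary pain against control, Il10ra reached 4.81 in females and 1.90 in males, and filled points occur in females alone.

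The sexes were compared by the interaction term in a fit of all 24 samples, where all 8 members passed the filter. No member and none of 15103 genes was called for any of the 3 differences between the sexes (0% each, edgeR, with 1446, 307 and 2224 genes at an unadjusted p under 0.05). DESeq2 called 15, 3 and 133 genes and none of the members. The difference for sedentary pain against control, male minus female, was largest for Il10ra at -2.95 ± 1.08 (SE, edgeR adjusted p = 0.444) and was -0.45 ± 1.26 for Socs3 (0.905). For active against sedentary pain it was 2.94 ± 1.05 for Il10ra (adjusted p = 0.244). A call in females and none in males therefore does not show that the sexes differed.

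The sex differences changed with the samples included. Fits of replicates 3 and 4 alone keep the 2 female sedentary pain libraries with macrophage sums of 4235 and 6119 CPM. In replicates 1 and 2 of that group the sums were 495 and 776 CPM. The part of this in the sex differences was not tested. In replicates 3 and 4 alone, where male sedentary pain replicate 1 takes no part, 5 members were called for sedentary pain against control: Il10ra at -3.85 ± 0.61, Socs3 at -3.41 ± 0.65, Bcl3 at -2.90 ± 0.68, Il10rb at -1.503 ± 0.41 and Tyk2 at -1.10 ± 0.23 (SE, n = 2 per group, edgeR adjusted p from 0.00813 to 0.0497), against 8.51% of all genes. In replicates 1 and 2 alone no gene was called, and the values went the other way for Socs3 (0.85), Bcl3 (0.60) and Il10rb (0.11). The same 5 were called in replicates 3 and 4 for active against sedentary pain, against 7.71% of all genes. Without male sedentary pain replicate 1 and with all other samples, Il10ra, Il10rb, Socs3 and Bcl3 were called for active against sedentary pain (adjusted p from 0.0228 to 0.0251), against 14.1% of all genes. For sedentary pain against control that fit gave adjusted p of 0.0674 for Il10ra and Socs3.

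Between male and female controls no member was called, against 2.83% of 15103 genes. Jak1 was higher in all 4 male controls than in any female control, with a log2 difference of 0.55 ± 0.22 (SE, edgeR adjusted p = 0.236). Bcl3 was lower in all 4 males, at -1.06 ± 0.87 (adjusted p = 0.570). Groups did not overlap for 22.3% of all genes, with males higher for 13.0% and lower for 9.30%. When only these 8 samples were fitted, Jak1 and Bcl3 both passed the threshold, against 13.5% of all genes. Il10rb, Socs3, Stat3, Il10ra and Tyk2 had log2 differences from -0.62 (Il10rb) to 0.02 (Tyk2), and Il10, with 9 reads in the female and 3 in the male controls, gave no measurable difference.

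Scaled by the merged exon length of each gene, the levels could be ordered within a group. In female controls mean CPM per kilobase was 17.9 for Jak1, 5.34 for Stat3, 1.80 for Tyk2, 1.35 for Il10rb, 0.783 for Socs3, 0.652 for Bcl3, 0.443 for Il10ra and 0.0614 for Il10. Neighbours in that order overlapped between samples for Tyk2 and Il10rb, Socs3 and Bcl3, and Bcl3 and Il10ra. In female sedentary pain the order was Jak1 at 16.9, Stat3 at 15.7, Il10ra at 12.8, Socs3 at 12.3, Bcl3 at 8.60, Il10rb at 4.81, Tyk2 at 2.89 and Il10 at 1.02 CPM per kilobase, and every neighbouring pair overlapped. The first place changed with the samples included: without replicate 1 the means were 17.8 for Stat3, 16.4 for Il10ra and 15.5 for Jak1, and without replicate 3 Stat3 was above Jak1 as well. Il10ra was at place 7 in controls and at place 3 here by the mean of all 4 samples. Without replicate 4 its mean was 7.70, behind Socs3 at 10.7, and within replicates 1 and 2 it was at places 4 and 5. In male controls the order was the same as in females except that Il10ra, at 0.443, stood above Bcl3, at 0.313, and these neighbours overlapped. In male sedentary pain the first 3 places were held by Jak1 at 24.2, Stat3 at 9.76 and Socs3 at 7.25 CPM per kilobase, the last with an SD of 12.4. Without replicate 1 the Socs3 mean was 1.06, at place 5 behind Tyk2 and Il10rb. In both active pain groups they were again Jak1, Stat3 and Socs3, with Socs3 at 2.21 in females and 2.94 in males. Socs3 overlapped there with Tyk2, the next in order, and it fell below Tyk2 without female replicate 3 (1.35 against 1.81) or male replicate 2 (1.60 against 1.95).

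Leukocyte markers moved with these genes. In bulk muscle, fewer cells of a type and less RNA per cell cannot be told apart. In female sedentary pain against control, 11 of 11 macrophage markers rose (median log2 fold change 4.17), and against active pain 9 of 11 were lower in active pain (median -2.57). Without sedentary pain replicates 3 and 4, 10 of 11 rose against control (median 1.91), and against active pain none was called (median -0.52). None of the 11 was called in either male pain group, where the medians were 1.90 and 1.60. The macrophage sum over the 24 samples ran from 72.9 to 241 CPM in controls of both sexes. Sedentary pain females had 495 to 6119 CPM and active pain females 292 to 544, and the ranges in males were 157 to 843 with sedentary pain and 257 to 547 with active pain.

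Il10ra is described here relative to that sum. As a percentage of the macrophage sum its median was 0.994 for controls, 1.54 for sedentary pain and 0.905 for active pain among females, and 1.24, 1.09 and 1.11 in that order among males. The lowest value in female sedentary pain was 1.34% and the highest in female controls was 1.10%, while the highest was 1.45% in female active pain and 1.64% in male controls. Relative to the same sum 6 of the other members had lower medians in female sedentary pain than in female controls, such as 0.910% against 3.46% for Il10rb, 10.6% against 32.3% for Stat3 and 0.564% against 1.03% for Bcl3, and the median of Il10 was 0.0457% against 0.0444%. Il10, Il10ra, Il10rb and Tyk2 were highest of all samples in female sedentary pain replicates 3 and 4, which also had the highest sums of 6 T cell markers, 32.1 and 50.4 CPM against at most 2.45 in the other 22 samples. The same libraries stood apart for the 4 B cell markers, at 7.07 and 11.3 CPM against at most 1.62 elsewhere. They did so for the 3 satellite cell markers (Pax7, Myf5 and Vcam1) as well, at 16.1 and 16.2 CPM against at most 8.31, and of these Vcam1 alone rose against control. The part of macrophages, lymphocytes and satellite cells in these results was not tested.

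Stat3, Socs3, Bcl3 and both receptor chains were also high in 4 libraries where neutrophil markers were high, with exceptions given below. Sums of the 6 neutrophil markers (S100a8, S100a9, Cxcr2, Mmp9, Ly6g and Retnlg) were 2.48 to 11.6 CPM in controls of both sexes, with Ly6g at 0 in all male controls. They reached 243 CPM in female sedentary pain replicate 2, 284 in male sedentary pain replicate 1, 106 in female active pain replicate 3 and 73.1 in male active pain replicate 2. The macrophage sums of these libraries were 776, 843, 544 and 547 CPM in that order, and the last 3 were the highest of their groups. Each of these 4 libraries had the highest neutrophil sum and the highest Stat3 of its group. The libraries of 3 groups also had the highest Il10ra, Il10rb, Socs3 and Bcl3 of their group, and the exception was female sedentary pain, where replicate 4 was highest for all 4 genes. Socs3 as a percentage of the macrophage sum reached 5.62 in female sedentary pain and 8.86 in male sedentary pain, against a highest control value of 2.20. Its median percentage was 1.32 in female sedentary pain against 1.47 in female controls, and 1.38 in male sedentary pain against 1.65 in male controls, so that the high values were those of single libraries. Female active pain replicate 2 had a neutrophil sum of 50.3 CPM, and the lowest Il10ra (1.80 CPM) and Il10rb (4.06 CPM) of its group. Neutrophil sums were 15.6 and 25.8 CPM in female sedentary pain replicates 3 and 4, where both receptor chains were highest. The part of neutrophils was not tested.

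**Figure D3:**
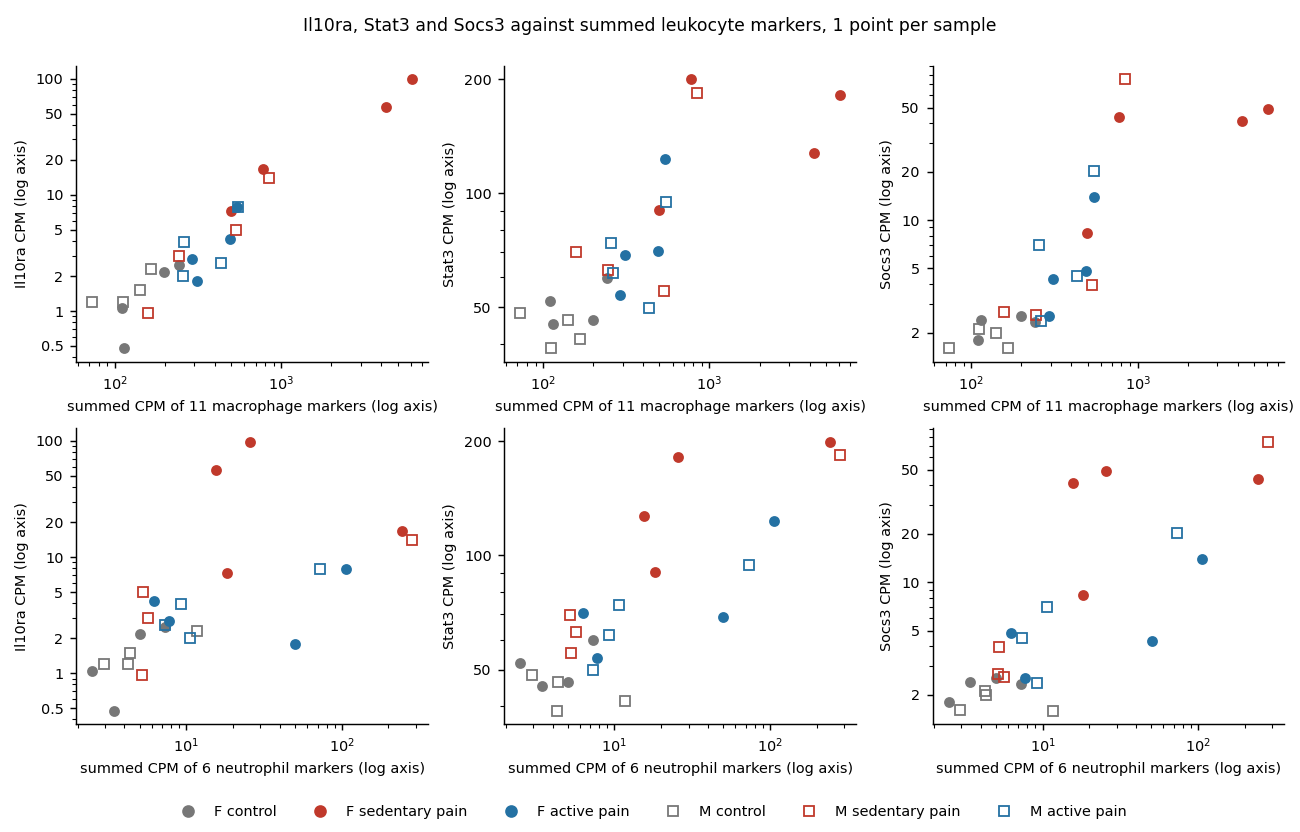
CPM of Il10ra, Stat3 and Socs3 (y axes, logarithmic) against the summed CPM of 11 macrophage markers (upper row) or 6 neutrophil markers (lower row, x axes logarithmic), with 1 point per sample and colours for condition. Il10ra is higher where the macrophage sum is higher, up to 98.5 CPM at a sum of 6119, while male sedentary pain replicate 1 has the highest Socs3 (74.7 CPM) at a macrophage sum of 843 and a neutrophil sum of 284.

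Genes whose levels were most like each member were found by Pearson r of log2 CPM among 11151 genes, as a description. Over the 24 samples these were Nrros (r = 0.978), Hcls1 and Arhgap9 for Il10ra, Shisa5 (0.984), Ftl1 and Arpc5 for Il10rb, Cd44 (0.961), Junb and Fxyd5 for Stat3, and Emilin2 (0.974), Tnip2 and C5ar1 for Socs3. They were Neurl3 (0.973), Tgfb1 and Vav1 for Bcl3, Mbd2 (0.974), Rad23b and Arih1 for Jak1, and Slc28a2 (0.948), Slc31a2 and Acp2 for Tyk2. With each group's mean taken out, Ptpn6, an SH2-domain phosphatase of blood cells, was nearest to Il10ra (0.966), Ftl1 to Il10rb (0.975), Junb to Stat3 (0.929), and Emilin2 (0.947), Tgif1 and the member Bcl3 (0.934) to Socs3. Fmnl1 was nearest to Bcl3 (0.965), Rab10 to Jak1 (0.987) and Atp13a2 to Tyk2 (0.957). The genes were read from the same libraries, whose depth and marker sums differ as given above, and Il10 was too low to be searched.

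Other genes of the pathway were read from 8 lists in female sedentary pain against control, where 33.5% of all genes changed. Of the 78 genes tested in these lists, 13 reached the minimum of the filter in fewer than 4 samples outside sedentary pain and thus passed it with the samples of sedentary pain. They were Batf, Nfkbid, Il1rn, Tnip3, Lif, Osm, Il21r and 6 inflammatory genes, and counts and medians that include them are a description of the genes tested. Of the other IL-10 family ligands and receptors, 1 of 9 was tested, Il20rb, and it did not pass (-0.07). Of the other JAK kinases and STAT factors, 4 of 7 tested rose and 1 fell (median 0.80). Stat2, a factor of interferon signalling, rose by 2.00 ± 0.40 from 6.54 ± 1.38 to 26.6 ± 11.9 CPM (edgeR adjusted p = 0.00504, n = 4). Stat5b, a mediator of growth hormone signals, fell by 0.91 ± 0.21 on the log2 scale, from 326 ± 47.4 to 175 ± 39.9 CPM (0.00849).

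Among 15 feedback regulators of JAK-STAT signalling, 4 rose and 1 fell, and the median was -0.16. Ptpn6 rose by 5.16 ± 0.87 on the log2 scale from 2.41 ± 1.45 to 88.7 ± 79.5 CPM (SD, n = 4, edgeR adjusted p = 0.00311). Ptpn2, a phosphatase of JAK and STAT proteins, rose by 1.01 ± 0.19 (0.00409). Socs7 fell by 0.82 ± 0.22 (0.0175). The other 10 genes of the list did not pass the test.

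Among 15 genes known to be induced by IL-10 in macrophages, 9 rose and none fell (median 2.06, against -0.02 over all genes). Hmox1, the haem-degrading enzyme, went from 7.26 ± 1.83 to 98.7 ± 51.0 CPM (log2 fold change 3.74 ± 0.53, edgeR adjusted p = 0.0026). Fcgr1, the high-affinity IgG receptor, went from 0.951 ± 0.476 to 63.0 ± 36.3 CPM (5.99 ± 0.90, same adjusted p). Cd163, the haemoglobin scavenger receptor, had 0.55 (0.319), and Nfil3 had -0.30 (0.275). Many of these genes are expressed by macrophages, whose markers rose in the same samples.

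Other ligands and receptors that signal through STAT3 moved in both directions, with 4 of 12 tested genes up and 3 down (median 0.44). Csf3r, the receptor for the neutrophil growth factor G-CSF, rose by 5.93 ± 0.90 from 0.422 ± 0.281 to 27.4 ± 13.8 CPM (edgeR adjusted p = 0.0026, n = 4). Il21r, with 20 reads in the 4 controls, had a log2 fold change of 6.03 ± 0.86, and it is among the genes that passed the filter through sedentary pain. Cntfr, the ciliary neurotrophic factor receptor, fell by 0.75 ± 0.17 (0.00934). Lep, the adipocyte hormone leptin, fell by 4.26 ± 1.11 (0.0158), and adipocyte markers summed to 150.1 to 2648 CPM in female controls and 135 to 293 in female sedentary pain. The part of fat tissue in this result was not tested.

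Of 9 transcription factors that act on Il10, 2 rose and none fell (median -0.11). Batf, an AP-1 factor of lymphocytes and myeloid cells, with 9 reads in the 4 controls, had a log2 fold change of 5.89 ± 0.99 and likewise passed the filter through sedentary pain. Prdm1 rose by 1.89 ± 0.61 (0.034). The remaining 7 did not pass.

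Of 10 NF-κB subunits and inhibitors, 8 rose and none fell (median 1.74). Nfkb2, whose p52 product is a partner of BCL3, went from 12.1 ± 1.21 to 51.9 ± 23.9 CPM (log2 fold change 2.08 ± 0.28, edgeR adjusted p = 0.0026, n = 4). Relb rose by 1.84 ± 0.25 with the same adjusted p.

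Of 13 inflammatory genes that IL-10 is known to restrain, 9 were tested, 8 rose and 1 fell. The 8 were Ccl2, Tnf, Ccl3, Ccl4, Il1b, Cxcl2, Ptgs2 and Nos2. Of these, 6 had between 1 (Cxcl2) and 14 reads (Ptgs2) in the 4 controls together, and Ccl2 and Nos2 had 59 and 259. Ccl2, a monocyte chemokine, went from 0.56 ± 0.149 to 39.3 ± 27.97 CPM (log2 fold change 6.09 ± 0.95, edgeR adjusted p = 0.0026, n = 4), and Tnf, which passed the filter through sedentary pain, from 0.117 ± 0.0406 to 11.4 ± 11.2 CPM. Il12a fell by 0.89 ± 0.28 (0.0337). The count and the median of 6.56 cover the genes that passed the filter, some of them through their level in the pain group, and are no measure of the whole list.

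Without sedentary pain replicates 3 and 4, 20 genes of the 8 lists rose against control in place of the 39 with all samples, and 2 fell in place of 6. Of all genes, 7.51% rose and 2.08% fell in that fit. The rises that were called were 2 feedback regulators, 5 IL-10 induced genes, 3 other STAT3 ligands and receptors, 1 Il10 transcription factor, 5 NF-κB genes and 4 inflammatory genes, and no JAK or STAT gene was called. Ptpn6 (3.35), Hmox1 (3.21), Fcgr1 (5.45), Csf3r (5.57), Nfkb2 (1.68), Relb (1.54) and Ccl2 (6.36) were among them, with edgeR adjusted p from 0.0125 to 0.0212. Batf (4.12) and Il21r (4.67) are in these counts as well, with the limit of the filter given above. Tnf had 4.23 (0.0692), Stat2 1.38 (0.058) and Prdm1 0.24 (0.753), and of the genes named as falling, Cntfr alone passed (-0.82, 0.0375).

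In female active pain against sedentary pain none of these genes rose. The number that fell was 3 of the JAK kinases and STAT factors, 4 of the feedback regulators, 6 of the IL-10 induced genes, 2 of the other STAT3 ligands and receptors, 2 of the Il10 transcription factors, 5 of the NF-κB genes and 1 of the inflammatory genes, against 9.41% of all genes downward. Stat6 fell by 0.83 ± 0.22 on the log2 scale (edgeR adjusted p = 0.0355) and Stat2 by 1.76 ± 0.39 (0.0328). Socs1 fell by 3.998 ± 0.93 and Ptpn1 by 1.24 ± 0.30, and Sbno2, a STAT3-induced co-regulator, by 1.77 ± 0.39 (0.0328 for each). Nfkb2 fell by 1.26 ± 0.28 and Nfkbie by 2.83 ± 0.63 (0.0328 for each). Il21r and Batf, which passed the filter through sedentary pain, had log2 fold changes of -3.79 ± 0.73 and -3.48 ± 0.82, and they are among the counts above. Prdm1 fell by 2.10 ± 0.61 (0.0454), Il6ra by 1.80 ± 0.51 (0.0422) and Nos2 by 3.06 ± 0.91 (0.0496). Without sedentary pain replicate 3, replicate 4 or both, no gene of the 8 lists was called in this comparison. In females active against control, and in all 3 male comparisons, no gene of the 8 lists was called.

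**Figure D4:**
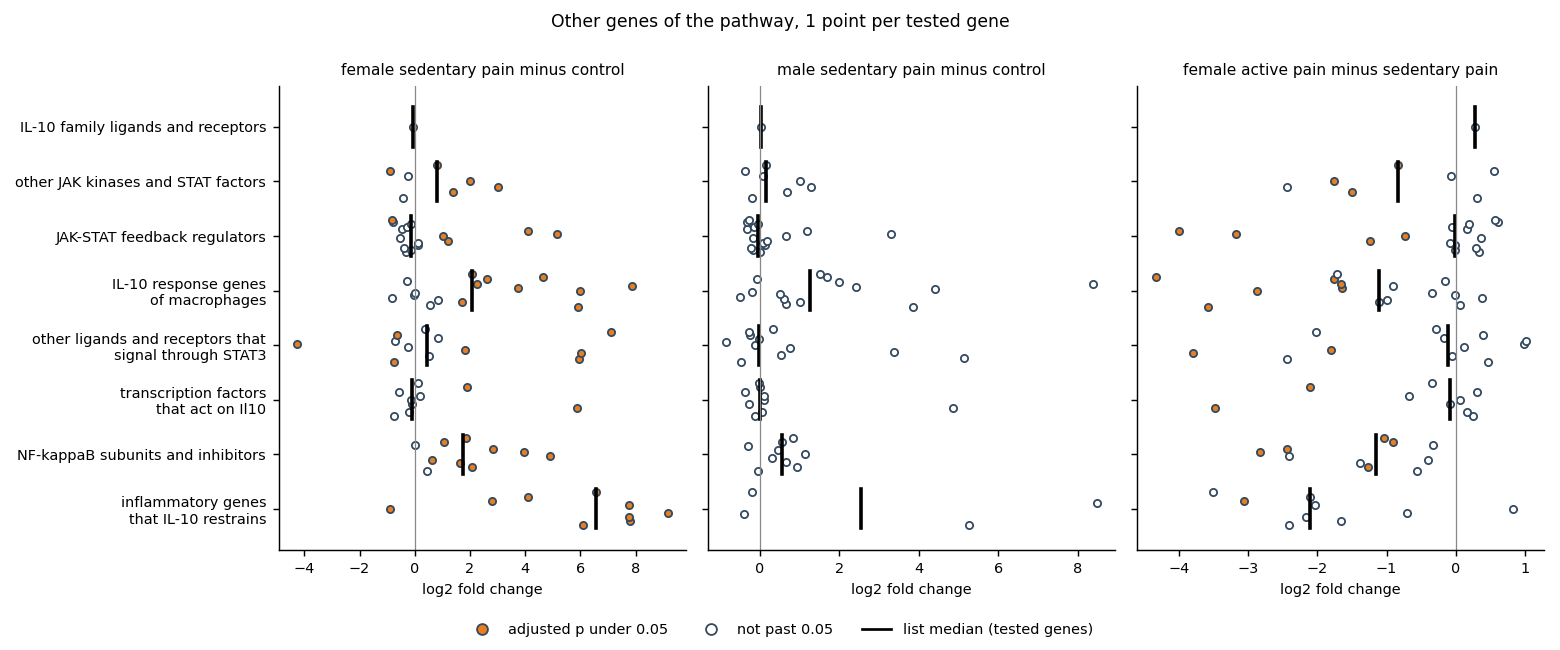
Log2 fold changes (x axis) of the tested genes in 8 pathway lists (y axis) for female sedentary pain against control, male sedentary pain against control, and female active against sedentary pain, with filled points where the adjusted p was under 0.05 and a bar at the list median. In the female comparison 8 of 10 NF-κB genes and 9 of 15 IL-10 induced genes are filled above 0, and no point is filled in males.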

How the data were processed

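Left gastrocnemius RNA was sequenced in 24 samples. Per the labels' protocols, RNA was extracted with a kit for fibrous tissue and made into TruSeq stranded libraries. The deposited files hold the authors' raw read counts per Ensembl gene, whole numbers with no normalization found. The submitters' processing notes name HISAT2 2.1.0, Salmon 0.9.1, featureCounts, DESeq2 1.24.0 and the builds mm10 and GRCm38.p6. Neither an annotation version nor strand use in counting is given in the sources used here. All 8 members and all 151 listed symbols were found, and exon lengths and overlaps come from GENCODE M21 (GRCm38). No pair of files was identical.

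Samples were grouped by their labels. edgeR 4.0.16 in R 4.3.3 was used: TMM scaling, filterByExpr by group (minimum count 10), robust quasi-likelihood F tests, two-sided, Benjamini-Hochberg adjustment over all genes tested, threshold 0.05. Each sex was fitted with its 12 samples, and sex differences and controls with all 24. CPM use the TMM factors of the 24-sample fit. Log2 CPM have a prior count of 2, and SEs follow from the F statistic. The test was tried on simulated data.

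The members and lists were chosen with earlier results of these data known. All members are named. From each list, up to 2 genes that rose and 2 that fell with the smallest adjusted p in each comparison within a sex are named, and the 3 genes most like each member. Single genes that this rule would name but that are withheld are not reported here. Il20rb, Cd163, Nfil3, the genes named for how they passed the filter and the names of the 8 raised inflammatory genes were added after their values were seen. Alternatives were RLE scaling, DESeq2 1.42.0, no filter, a mean of at least 50 counts, all 24 samples or only 2 groups fitted, the replicate block, a term that separates replicates 1 and 2 from 3 and 4 (low and high library numbers), 1 surrogate variable (sva 3.50.0), an offset from splines on gene GC content and on length (5 degrees of freedom each), also with the block, replicates 1 and 2 or 3 and 4 alone, and each sample left out. Leaving out female sedentary pain replicates 3 and 4 together, also with no filter, and the alternatives for the lists, were added after seeing the data. Protein motifs were not analysed here. Figures were drawn with matplotlib 3.10.9.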

Additional observations from a re-analysis of the deposited data

Results flagged for a closer look

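In 48 sets of 4 samples (8 genes in 6 groups), a sample whose gap to its nearest neighbour exceeded 0.829 of the group's range was looked for, a rule that chance meets in about 1 of 20 sets. It was met 6 times. Male sedentary pain replicate 1 accounted for 5: it had 17.93 CPM of Il10rb against 3.41 to 4.99 in the other 3 samples, 183.9 CPM of Stat3 against 55.4 to 69.8, 74.68 CPM of Socs3 against 2.58 to 3.93, 22.7 CPM of Bcl3 against 0.904 to 1.97, and 110.4 CPM of Jak1 against 190.5 to 201. The 6 neutrophil markers summed to 284 CPM in that library and to 5.19 to 5.66 CPM in the other 3, and their part in these values was not tested. The remaining case was Il10 in male control replicate 4, at 0.09438 CPM (3 reads) with 0 in the other 3. Any read in 1 sample meets the rule there, so that the rate of 1 in 20 does not apply. The 5 cases above share 1 library and are not separate from each other.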

How the results depend on the processing

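No member value called with all samples or under an alternative differed in sign between the 2, and 111 sign changes concerned values called neither with all samples nor under that alternative. Alternatives did differ in sign from each other: in replicates 1 and 2 alone the sex difference of sedentary pain against control was 0.85 for Socs3, 0.60 for Bcl3 and 0.11 for Il10rb, and Tyk2 in female sedentary pain was -0.09, none of them called, while each was called with the other sign in replicates 3 and 4 alone. In female sedentary pain against control, 5 members were called. That count was 0 with 1 surrogate variable, 1 in replicates 1 and 2 alone, 2 (Stat3 and Socs3) with no filter and female sedentary pain replicates 3 and 4 left out, and 5 to 7 over the left-out samples, Il10 counted where it passed the filter. In female active against sedentary pain, 4 were called, and 0 were with no filter on low counts, with 1 surrogate variable, when only the 2 groups were fitted, in replicates 1 and 2 alone, and with female sedentary pain replicates 3 and 4 left out together, with or without the filter. Over the left-out samples that count ran from 0 to 7. In both comparisons Il10 passed the filter of such fits through sedentary pain, so that its call is no separate support. The sex difference of sedentary pain against control had 0 members called and 5 in replicates 3 and 4 alone. That of active against sedentary pain had 0, with 5 in replicates 3 and 4 alone and 0 to 4 over the left-out samples, the 4 without male sedentary pain replicate 1. Between male and female controls 0 were called, with 1 (Jak1) with 1 surrogate variable and 2 (Jak1 and Bcl3) when only the 2 groups were fitted. The cause of these moves was not tested. In female sedentary pain against control, 33.5% of all genes were called with all samples and 1.67% in replicates 1 and 2 alone. The share is not given here for the female fits with 1 surrogate variable, no filter or only 2 groups. Counts in those fits do not show a move particular to the members. The other comparisons had 0 members called throughout.

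Replicate numbers recur in all groups, but the samples sharing a number did not deviate together: the correlation of their residuals ran from -0.32 to 0.415 in females and from -0.647 to 0.592 in males, and 6 of 24 female and 5 of 24 male best matches had the same number. A fit with the replicate block called 5 members in female sedentary pain against control and 5 in active against sedentary pain, where Stat3 was added. The offset for GC content and length kept 5 and 4 member calls. Among all calls in active against sedentary pain it turned 364 of 1730 higher into 652 of 1900 higher, and to 1546 of 2963 together with the block. The median of all genes there moved from 0.01 to 0.11. For sedentary pain against control the offset with the block gave 2146 of 5413 higher.

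DESeq2 gave no p-value for Socs3 and Bcl3 in the male comparisons, and Il10 did not pass a minimum mean of 50 counts. Depth limits Il10, whose 0 to 13 reads per sample outside female sedentary pain give no measurable difference between those groups.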
